A study of Mus musculus with 2 samples.

Results

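The AP-1 and Egr immediate early factors are transcription factors whose genes many cell types switch on within minutes of a stimulus. They were taken as all probe sets whose platform symbol was exactly Fos, Fosb, Fosl1, Fosl2, Jun, Junb, Jund, Egr1, Egr2 or Egr3, which gave 10 genes of 18193 with 1 symbol and 16 probe sets of 45101. The cells were superficial zone cells, the chondrocytes of the articular surface, prepared from the femur and tibia of ICR mouse joints on postnatal day 4 and grown in DMEM with 10% serum. One culture received 10 μM retinoic acid, the active form of vitamin A, for 24 h and the other, the control, received none. No earlier time was measured, so the ratios do not describe a response within minutes. RNA of each culture was read on 1 Affymetrix Mouse Genome array (n = 1 per group), so no test was possible, no p-value is given, and each ratio describes these arrays. The number of animals behind a culture and whether both cultures came from 1 preparation are not given in the labels.

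AP-1 is a dimer of leucine zipper proteins, most often a Fos protein with a Jun protein, which binds DNA and raises or lowers the transcription of genes for growth, matrix turnover and inflammation. The Egr proteins are zinc finger factors that respond to the same growth factor and stress signals, and Nab proteins hold them in check. In cartilage and synovial cells AP-1 is known for its action on collagenase genes, and retinoic acid receptors bound to their ligand are known to interfere with AP-1 activity in several cell types.

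The promoters of 7 of the 10 genes matched RefSeq's table for GRCm38.p6, with 11 windows that run from 250 bases before to 50 bases after a start. Fosl1, Egr1 and Egr3 were the other members. The windows were searched on both strands for the core of the cyclic AMP response element (TGACGT), the AP-1 and ATF site known from the Jun promoter (TGACATCA), the AP-1 site (TGANTCA), the Egr site (GCGNGGGCG) and the serum response element's CArG box. Those of Fos (chr12:85473640-85473939, plus strand), Jun (chr4:95052173-95052472, minus strand) and Fosl2 (chr5:32136222-32136521, plus strand) are shown, since these genes hold the highest ratio, a ratio past 2-fold and the lowest ratio among the members above the array median on both arrays. Capitals mark the motifs found.
Fos: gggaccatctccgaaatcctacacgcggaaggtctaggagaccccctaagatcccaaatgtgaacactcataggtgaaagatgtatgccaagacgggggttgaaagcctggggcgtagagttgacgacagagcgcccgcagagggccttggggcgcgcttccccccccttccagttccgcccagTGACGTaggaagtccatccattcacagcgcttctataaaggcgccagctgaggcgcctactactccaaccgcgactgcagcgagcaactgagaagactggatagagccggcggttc
Jun: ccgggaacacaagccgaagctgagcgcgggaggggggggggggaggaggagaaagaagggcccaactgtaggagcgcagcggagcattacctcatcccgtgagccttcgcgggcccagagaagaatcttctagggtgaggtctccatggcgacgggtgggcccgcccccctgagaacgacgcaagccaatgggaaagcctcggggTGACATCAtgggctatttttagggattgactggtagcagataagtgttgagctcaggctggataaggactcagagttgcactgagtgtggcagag
Fosl2: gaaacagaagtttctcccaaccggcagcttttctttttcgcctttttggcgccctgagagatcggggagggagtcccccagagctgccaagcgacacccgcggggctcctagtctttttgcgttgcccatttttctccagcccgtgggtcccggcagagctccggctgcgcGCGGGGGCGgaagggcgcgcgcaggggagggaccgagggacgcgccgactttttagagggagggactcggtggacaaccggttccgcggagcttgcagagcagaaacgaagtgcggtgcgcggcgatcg
The Fos window held TGACGT 66 bases before the start, a motif found in 7.51% of 32817 promoter windows. The Jun window held TGACATCA 45 bases before the start (3.62% of windows), and the Fosl2 window held an Egr motif 79 bases before it (5.56%). The motifs found differ between all 3 windows. A Fosb window held the Egr motif 50 bases before the start, and 4 overlapping or neighbouring Egr2 windows held a CArG box (1.63% of windows), 3 of them with TGACGT as well. TGANTCA, found in 7.81% of windows, was in none of the members' windows, and the Junb and Jund windows held none of these motifs. The table gives 1 window for Jund, and whether it lies at the start used in these cells was not tested. The motifs do not overlap one another in the windows shown, and a match describes the letters only.

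Fos, Egr1 and Jun had at least 2-fold more signal with retinoic acid than in the control. Of the 8 measured members of the 10, none gave a ratio or bound of at least 2-fold less. Signals at or below the array's median (29.7 with retinoic acid, 26.5 in the control) were raised to it, and each gene was read from its brightest probe set. Of the 10 genes, 7 were above the median on both arrays, Egr3 on 1 array only, and Fosb and Egr2 on neither. Of all 11884 genes measured in this way, 6.54% had a ratio of 2-fold or more above the control, and 4.34% one of 2-fold or more below it. By probe set, 3 of the 11 measured among the 16 were 2-fold or more above the control, as were 6.46% of all measured probe sets. None of the 11 was 2-fold or more below it, as were 3.76% of all measured probe sets. The median log2 ratio of retinoic acid over control was 0.23 over the 8 measured members, 0.39 over the 7 above the median on both arrays, and 0.004 over all measured genes.

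**Figure D1:**
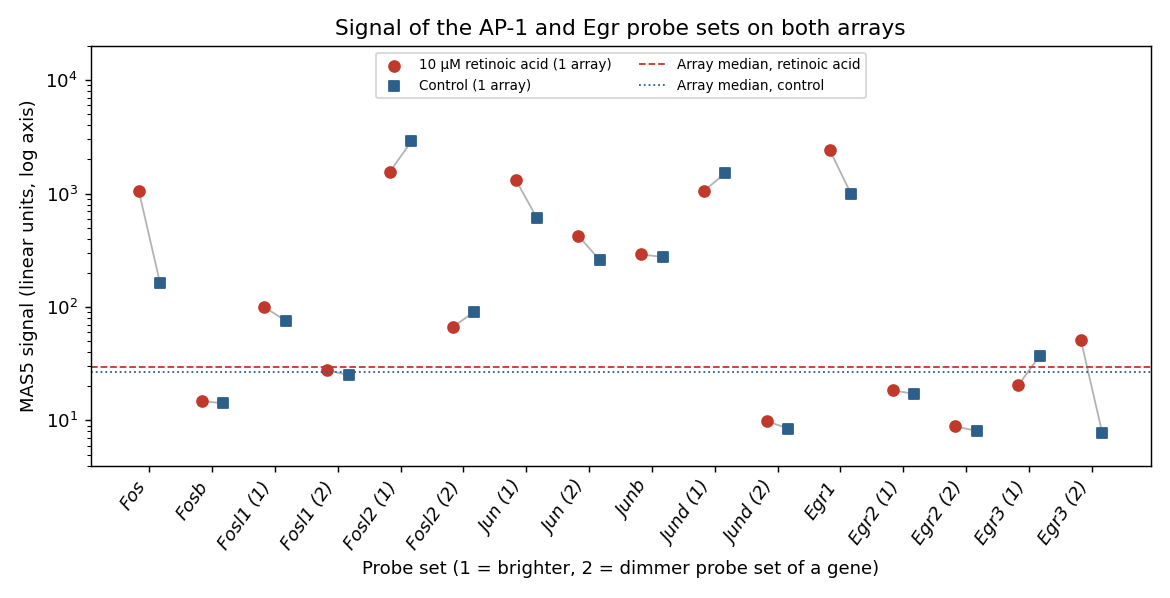
MAS5 signal of each of the 16 probe sets on the retinoic acid array (circles) and the control array (squares), on a log axis, with each array's median as a horizontal line. Fos has the widest gap among probe sets above both medians (1062 with retinoic acid, 162 in the control). The probe sets of Egr3 differ in opposite directions, each with signals on both sides of the medians.

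Among the Fos proteins, which need a partner to bind DNA, the genes differed widely. Fos, the prototype of the family, had a signal of 1062 with retinoic acid and 162 in the control, 6.56-fold higher (log2 ratio 2.71). It is read by 1 probe set, so no second measurement on the arrays bears on it. Of the 10722 genes above the median on both arrays, 52 (0.485%), Fos included, had a ratio at least that high.

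Fosl2, which encodes the Fos-related antigen Fra-2, lay on the other side. Its brighter probe set had a signal of 1563 with retinoic acid and 2876 in the control, 1.84-fold lower (log2 ratio −0.88). Its dimmer probe set had 66.6 with retinoic acid and 90.5 in the control, 1.36-fold lower. Both probe sets were thus lower with retinoic acid, and they differed by 0.44 on the log2 scale. Of the genes above the median on both arrays, 563 (5.25%), Fosl2 included, had a ratio at least that low.

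Fosl1, which encodes Fra-1, had a signal of 99.6 with retinoic acid and 75.9 in the control, 1.31-fold higher. Its dimmer probe set was below the median on both arrays (27.9 with retinoic acid, 24.9 in the control). Fosb, whose product resembles Fos, was also below it, at 14.8 with retinoic acid and 14.2 in the control, so no ratio was taken. Fosl1 therefore rests on 1 probe set, and the low Fosb signal leaves its level unread on this platform.

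Among the Jun proteins, which can bind DNA with a Fos protein or with each other, Jun alone was past 2-fold. The brighter Jun probe set had a signal of 1328 with retinoic acid and 607 in the control, 2.19-fold higher (log2 ratio 1.13). The dimmer one had 424 with retinoic acid and 259 in the control, 1.64-fold higher (log2 ratio 0.71). Both probe sets were higher with retinoic acid, but only the brighter one passed 2-fold, and with the median of its probe sets the log2 ratio of Jun was 0.92, short of it. Of the genes above the median on both arrays, 526 (4.91%), Jun included, had a ratio at least as high as its brighter probe set.

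Junb, a Jun relative that often opposes Jun in cell growth, had nearly equal signals, 291 with retinoic acid and 276 in the control (1.05-fold). Jund, the family member known for steady expression in unstimulated cells, had 1061 with retinoic acid and 1509 in the control, 1.42-fold lower. The second Jund probe set was below the median on both arrays, at 9.88 with retinoic acid and 8.46 in the control. The 3 Jun genes thus included 1 higher past 2-fold and 2 within it on either side.

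Among the Egr genes, only Egr1 was above the median on both arrays. Egr1, known as a serum and stress response factor and as a regulator of tendon collagen genes, had a signal of 2420.3 with retinoic acid and 992 in the control, 2.44-fold higher (log2 ratio 1.29). Like Fos it is read by 1 probe set. Of the genes above the median on both arrays, 397 (3.70%), Egr1 included, had a ratio at least that high.

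The probe sets of Egr3, a relative of Egr1, went opposite ways, so no direction is given for the gene. One had 20.4 with retinoic acid and 36.9 in the control, and the other 50.7 with retinoic acid and 7.71 in the control. Each was above the median on 1 array only, so the ratios are bounds, at least 1.24-fold lower by the one and at least 1.91-fold higher by the other. Egr2, known for its role in myelinating Schwann cells, was below the median on both arrays by both probe sets, the brighter at 18.4 with retinoic acid and 17.2 in the control.

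The log2 ratios of the 7 genes above the median on both arrays spanned 3.59 units, from −0.88 for Fosl2 to 2.71 for Fos. The central 90% of the 10722 genes lay between −0.90 and 1.11, and 3 members, Fos, Egr1 and Jun, were above that range and 0 below it. Probe sets of the same gene gave log2 ratios with a pooled SD of 0.30 (4993 genes). That SD measures scatter within the same RNA and holds no variation between cultures. Of the 7 members 6 had a ratio further from 0 than this SD, all but Junb, as did 50.8% of all genes above the median on both arrays.

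**Figure D2:**
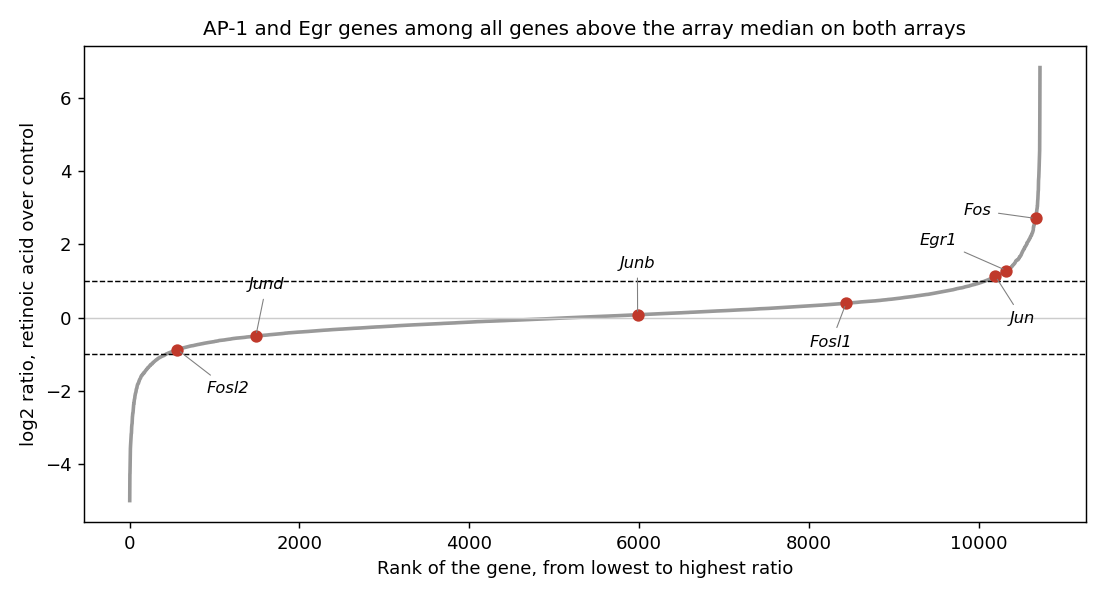
log2 ratio of retinoic acid over control for the 10722 genes above the array median on both arrays, ordered from lowest to highest (grey line), with the 7 such AP-1 and Egr genes as points and 2-fold as dashed lines. Fos (2.71), Egr1 (1.29) and Jun (1.13) lie above the upper line, and Fosl2 (−0.88) lies just inside the lower one.

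The share of all genes past 2-fold was also read by signal. Among 2669 genes with a geometric mean signal from 500 to 2000, which include Egr1, Jun and Jund, 5.84% were past 2-fold on the higher side and 3.22% on the lower. Among 5055 genes from 100 to 500, which include Fos and Junb, 6.19% were higher and 4.21% lower. Among the 749 genes from 2000 up, where Fosl2 lies, 3.87% were higher and 2.40% lower. The 2235 genes from 30 to 100, which include Fosl1, had the largest shares, 6.67% higher and 5.15% lower.

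Other leucine zipper partners of AP-1 went both ways, and Atf3 stood opposite to Fos. Of 10 measured partners 2 were past 2-fold on the higher side and 1 on the lower (median log2 ratio −0.07). The shares of all measured genes were 6.54% and 4.34%. Atf3, a stress-induced factor that pairs with Jun proteins, had 22.0 with retinoic acid, below the array's median, and 288 in the control, at least 9.69-fold lower. Maff, a small Maf protein without an activation domain, had 167 with retinoic acid and 39.3 in the control, 4.26-fold higher. Batf, a partner of Jun proteins known from lymphocytes, had 81.9 with retinoic acid and 40.3 in the control, 2.03-fold higher, just past 2-fold and from a low signal.

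The Nab corepressors of the Egr proteins were within 1.15-fold between the arrays. Nab1 had 528 with retinoic acid and 604 in the control (1.15-fold lower), and Nab2, itself a known Egr target, 376 with retinoic acid and 331 in the control (1.14-fold higher). Egr4 was below the median on both arrays. Thus the Egr1 difference was larger than that of either corepressor gene on these arrays.

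Genes that act upstream of the immediate early response were mostly within 2-fold. Of 16 measured, 1 was past 2-fold on the higher side and 0 on the lower (median log2 ratio 0.18), counts near the shares of all measured genes (6.54% and 4.34%). The one past 2-fold was Crem, a cyclic AMP responsive factor, with 177 with retinoic acid and 63.0 in the control (2.80-fold higher), while its dimmer probe set had a log2 ratio of 0.47. Srf, the serum response factor that binds the CArG boxes of Fos and Egr genes, had 206 with retinoic acid and 145 in the control (1.42-fold higher). Its second probe set had a log2 ratio of −0.05, so its direction is not settled.

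Other immediate early genes were split, with 4 of 25 measured past 2-fold on the higher side and 2 on the lower (median log2 ratio 0.13). Among all measured genes these shares were 6.54% and 4.34%. Phlda1, which encodes a pleckstrin homology domain protein, had 2124 with retinoic acid and 327 in the control, 6.50-fold higher. Dusp1, which encodes a phosphatase that switches off MAP kinases, was 3.16-fold higher and Zfp36l1, which encodes an RNA decay factor, 3.17-fold higher. Nr4a3, an orphan nuclear receptor gene, was at least 4.15-fold higher from a control signal below the median. Its other probe sets were below the median on both arrays.

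On the lower side, Myc, the growth regulator, had 321 with retinoic acid and 746 in the control, 2.32-fold lower. Ptgs2, which encodes the inducible cyclooxygenase, was 2.42-fold lower and was named after its value was seen. Ier2, an immediate early gene that often moves with Fos and Jun, had 556 with retinoic acid and 766 in the control (1.38-fold lower). Higher signal was therefore not shared by all immediate early genes on these arrays.

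Known AP-1 target genes likewise lay on both sides, with 4 of 16 measured past 2-fold on the higher side and 2 on the lower (median log2 ratio 0.32). Among all measured genes 6.54% were past it on the higher side and 4.34% on the lower. The matrix metalloproteinase genes Mmp13, a collagenase, and Mmp3, stromelysin, were 3.07-fold and 5.63-fold higher, and Mmp9, a gelatinase, was at least 5.15-fold higher. The second Mmp9 probe set was also higher, but its bound, a log2 ratio of 0.92, fell short of 2-fold. Mmp13 had 10597 with retinoic acid and 3446 in the control, and Mmp3 had 1745 with retinoic acid and 310.1 in the control. Ccl2, a chemokine for monocytes, had 43.5 with retinoic acid and 417 in the control, 9.58-fold lower. Sphk1 (2.33-fold higher) and Hmox1, the haem oxygenase gene (2.06-fold lower), were named after their values were seen.

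Of 12 measured genes known as Egr targets, 1 was past 2-fold on the higher side and 2 on the lower (median log2 ratio −0.18). The shares of all measured genes past 2-fold were 6.54% and 4.34%. Pdgfa, which encodes a platelet-derived growth factor chain, had 1137 with retinoic acid and 459 in the control, 2.48-fold higher, with its second probe set at a log2 ratio of 1.21. F3, which encodes tissue factor, was 2.40-fold lower (105 with retinoic acid, 253 in the control). The other lower gene was the tendon factor Scx, whose second probe set had the opposite sign, so its direction is not settled. All these lists are described by their counts only and were not tested.

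**Figure D3:**
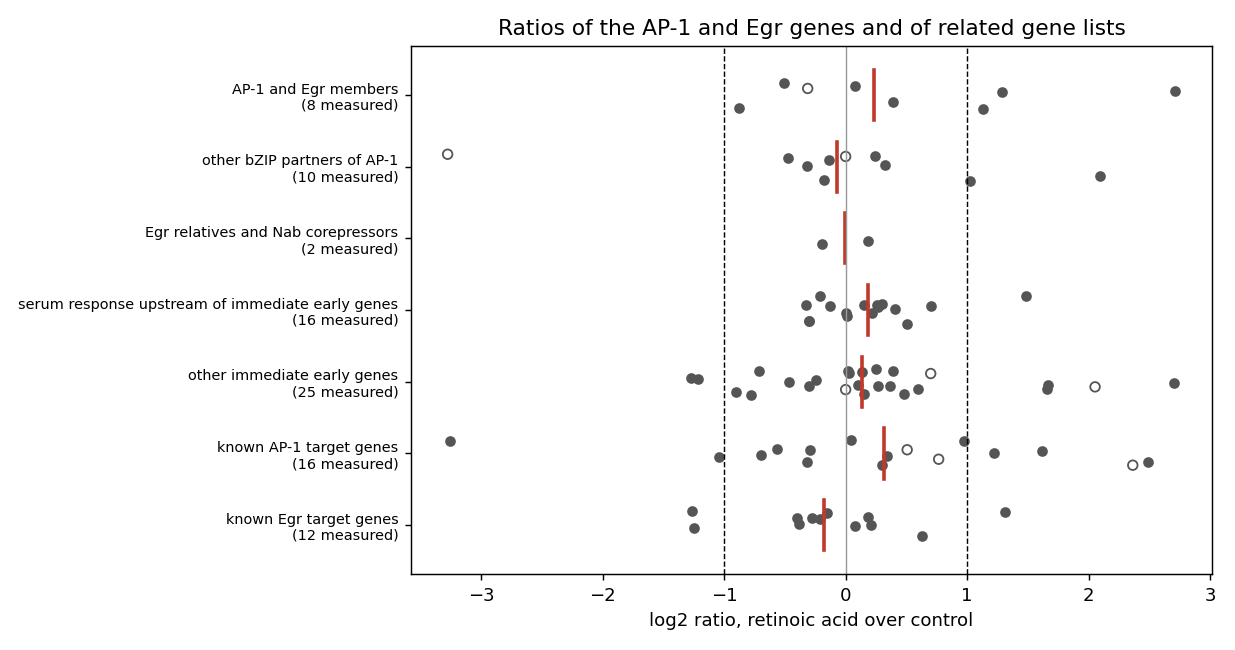
log2 ratio of retinoic acid over control for each measured gene of the AP-1 and Egr members and of 6 related lists (filled points above the array median on both arrays, open points bounds, red bars medians, dashed lines 2-fold). Every list but the Nab group has genes past 2-fold, and Atf3 is the open point furthest left, at −3.28.

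Markers of cell types were read beside these values. For scale, 6.54% of all measured genes were past 2-fold on the higher side and 4.34% on the lower. Of 8 chondrocyte markers 4 were at least 2-fold lower and 0 higher, with a median log2 ratio of −1.88. These were Acan (32.3-fold lower), Sox9 (10.8-fold), Hapln1 (9.37-fold) and Matn3 (7.99-fold). Col2a1, Comp, Col9a1 and Col11a1 were lower but within 2-fold by the brightest probe set. These brighter genes weigh most in the summed signal, 29383 with retinoic acid and 50714 in the control. The 5 measured superficial zone markers had a median log2 ratio of −0.55. Of these 5, Prg4, Erg, Tnc and Thbs4 were lower but within 2-fold, and Clu, which encodes clusterin, was 5.97-fold higher. Prg4, which encodes lubricin and marks the superficial zone, was read on both arrays (1148 with retinoic acid, 1920 in the control). The pan-leukocyte marker Ptprc (6.59 with retinoic acid, 5.34 in the control) and the endothelial marker Pecam1 (2.72 with retinoic acid, 2.38 in the control) were far below the median. The summed signal of 8 macrophage and blood cell markers was 620 with retinoic acid and 526 in the control, with 0 of 5 measured past 2-fold. These 5 were above the median on both arrays, with Lyz2 at 354 with retinoic acid and 336 in the control, Cd14 at 102 with retinoic acid and 56.1 in the control, and Csf1r, Cd68 and Adgre1 between 31.9 and 60.3. The summed signal of 6 endothelial markers was 91.6 with retinoic acid and 76.7 in the control. Of 5 osteoclast markers 2 were measured, and 1 of them, Acp5, was past 2-fold, at 6.45-fold higher. Ctsk, the other, was 1.20-fold higher. Calcr, which marks mature osteoclasts, Oscar and Dcstamp were below the median on both arrays. Of 6 smooth muscle markers, which cultured chondrocytes can also express, the summed signal was 5856 with retinoic acid and 4092 in the control, with 1 of 5 measured past 2-fold on each side. Of 4 measured osteoblast markers, 2 (Sp7 and Alpl) were past 2-fold on the lower side. Ibsp was 1.13-fold higher and Dmp1 at least 1.54-fold higher. Of 5 measured tendon markers, 3 (Kera as a bound, Fmod and Scx) were past 2-fold on the lower side by the brightest probe set. The second Scx probe set had the opposite sign, so the direction of Scx is not settled. Tendon markers did not all fall, since Mkx was 1.90-fold higher, and Tnmd was 1.21-fold lower. In the remaining lists, 0 of 4 for skeletal muscle and 0 of 2 for Schwann cells were past 2-fold, and 0 of 3 adipocyte markers were above the median. Fewer cells of a type and less RNA per cell cannot be told apart here, and the part of the marker differences in the AP-1 and Egr values was not tested.

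The ratios of the members above the median on both arrays kept their sign under each of the 11 alternative settings that gave them a value. For Fos, Egr1 and Junb, each with 1 probe set and above every floor, only the offset and the 3 scalings could change the ratio. For Jun, Fosl2, Jund and Fosl1, the median over probe sets could change it as well. The other settings are no check on any of these genes, since their outcome was fixed wherever they gave a value. Fos stayed between 2.53 and 2.71 on the log2 scale, Egr1 between 1.20 and 1.29, Jun between 0.92 and 1.13 and Fosl2 between −0.98 and −0.66. Jund lay between −0.61 and −0.14, Fosl1 between 0.28 and 0.39 and Junb between 0.03 and 0.08. The sign of Egr3 depended on the setting, with values from −0.86 to 0.28.

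**Figure D4:**
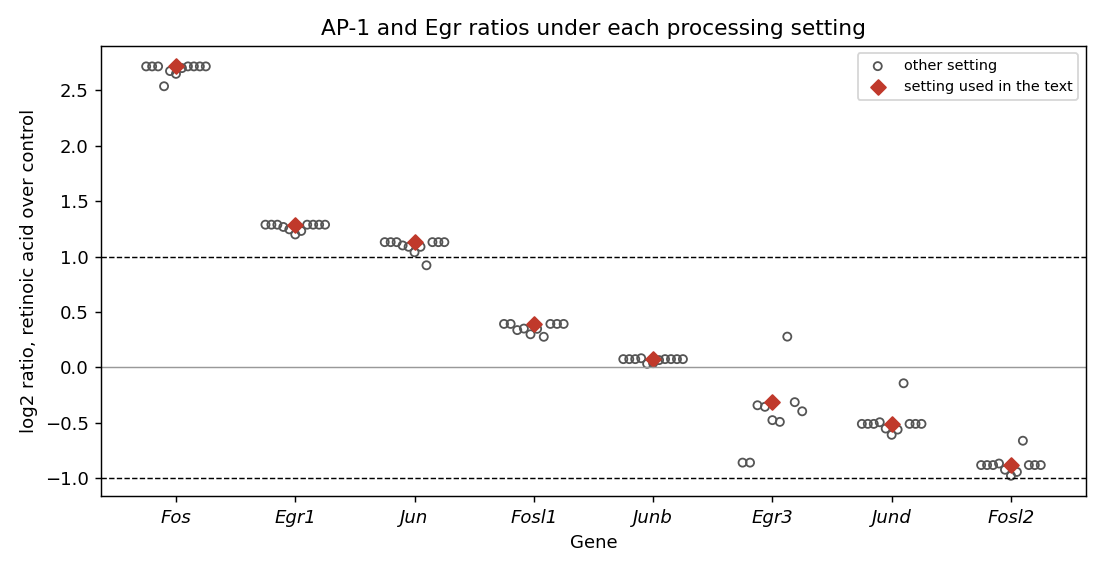
log2 ratio of retinoic acid over control for the 8 measured members under the setting used in the text (diamonds) and under the other settings that gave a value (open circles), with 2-fold as dashed lines. Fos and Egr1 stay above the upper line throughout, Jun drops to 0.92 in 1 setting, and Egr3 lies on both sides of 0.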

How the data were processed

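Total RNA of each culture was labelled with biotin from 100 ng and hybridised to 1 array, per the labels' protocols. The deposited values are linear intensities, the signal of each probe set from MAS5, the Affymetrix algorithm that joins perfect-match and mismatch probes, per the submitters' processing notes. The MAS5 version, its scaling target and any detection call are not stated in the labels. Values were used as deposited. Probe sets were named through the platform annotation, in which 34945 of 45037 probe sets other than controls had 1 symbol, 932 had several and 9160 had none. Entrez identifiers changed 0 symbols.

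Signals at or below an array's median were raised to it. A gene was read from its brightest probe set (by mean log2 signal over the arrays). Its log2 ratio is that of retinoic acid over control, and a gene above the median on 1 array only gave a bound. With 1 array per group no test was run. The number of arrays limits the precision. The counting step was tested on simulated data, with differences larger than 2-fold planted only in genes well above the floor. It checks the code and does not bear on members near the floor or near 2-fold.

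All members are named. Of each other list, the rule named up to 4 genes past 2-fold with the largest ratios, or the top 2 where none was, with a fixed set (among them Atf3, Nab1, Nab2, Egr4, Srf, Mmp13, Mmp3, Myc, Ier2 and Dusp1). Members and lists were chosen with earlier results of these data known. Alternatives were other floors, an offset, 3 scalings, the median over probe sets, probe sets with plain names, and genes above the floor on both arrays. A common floor and leaving out Egr3 were chosen after seeing the data. Promoter sequences came from RefSeq (GRCm38.p6). The tools were Python 3.11.15, pandas 2.3.3, numpy 2.4.6, matplotlib 3.10.9 and statsmodels 0.14.6.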

Additional observations from a re-analysis of the deposited data

How the results depend on the processing

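No paired analysis was possible because each group has 1 array. The count of members at least 2-fold higher was 3 under every setting except the median over probe sets, where it was 2 (Fos and Egr1). The count at least 2-fold lower was 0 under all 12 settings run. The member median of 0.23, which holds the Egr3 bound, was 0.60 with the floor at the 70th percentile of signal, which leaves 6 members measured, 0.39 without Egr3 or with just the genes measured on both arrays, and 0.088 with the floor at the 30th percentile or with no floor. The background depended on the floor. All genes at least 2-fold higher numbered 449 with the floor at the 70th percentile and 2137 with no floor, against 777 in the text. Those at least 2-fold lower numbered 832 with the floor at the 30th percentile, 260 at the 70th and 2106 with no floor, against 516. Fewer or more genes are measured under these floors by construction (15117, 8443 and 18193). Fosb and Egr2 gave values only with a lower floor, none or an offset, and these were within 0.14 of 0 on the log2 scale. Signals near the array median, such as those of Egr3, carry little information.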

Other observations

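Genes that control the turnover or activation of AP-1 proteins were within 2-fold, as were 89.9% of all genes above the median on both arrays. Of 8 measured, 0 were past 2-fold in either direction (median log2 ratio −0.22), counts near the shares of all measured genes (6.54% higher and 4.34% lower). Fbxw7, which encodes a ubiquitin ligase subunit that targets Jun for degradation, had 142 with retinoic acid and 224 in the control, 1.57-fold lower, and its second probe set was on the same side (log2 ratio −0.19). Det1, a component of another ligase complex that acts on Jun, had 117 with retinoic acid and 181 in the control, 1.55-fold lower. The list did not go 1 way, as 5 of the 8 were lower and 3 higher. Itch had 602 with retinoic acid and 445 in the control (1.35-fold higher), and Usp28 was 1.44-fold higher.

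Of the 6 retinoid receptor genes, 1 was past 2-fold on the higher side and 0 on the lower. The shares of all measured genes were again 6.54% and 4.34%. Rarb, a known direct target of its own ligand, had 1929 with retinoic acid and 5.73 in the control, at least 72.8-fold higher. Rarg had 596 with retinoic acid and 542 in the control (1.10-fold higher), and Rara 36.8 with retinoic acid and 52.0 in the control (1.42-fold lower).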
